A study of Homo sapiens with 60 samples.

Results

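The 42 genes described here encode the machinery that copies DNA, and they were taken from a count table of 60675 genes by a list of symbols covering origin licensing, the replicative helicase, the polymerases, the sliding clamp, nucleotide supply and the E2F factors. All 42 were matched to an Ensembl gene and all 42 passed the filter on low counts, which left 16608 genes for testing. The lowest count of any of them in any library was 105. The rule goes by symbol and uses no measured value, although the members were chosen with earlier results of these data known. HT29, an established line of human colorectal adenocarcinoma cells, was exposed for 24 h to 6 water extracts of medicinal plants, and RNA sequencing libraries were made from 3 samples of each of 20 groups. The doses of Coptidis Rhizoma were 11.6, 58 and 290 µg/mL, of which the highest was its IC20, the concentration that inhibits by 20%. Zingiberis Rhizoma Recens (fresh ginger), Zingiberis Rhizoma (ginger), Pinelliae Tuber, Scutellariae Radix and Zizyphi Fructus were given at 20, 100 and 500 µg/mL. These doses are called low, medium and high. Of the remaining groups, one received 10 µM wortmannin, an inhibitor of phosphoinositide 3-kinase, as the positive control and the other received the vehicle DMSO, which the labels give as 0.1% and the series design as 2%. Whether the extracts were given with DMSO is not stated.

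Before a cell copies its DNA, the origin recognition complex, CDC6 and CDT1 load the MCM2 to MCM7 ring onto origins, a step called licensing. In S phase CDC45 and the GINS complex turn the ring into an active helicase, DNA polymerases extend primers behind it with the clamp PCNA, and FEN1 and LIG1 join the pieces of the lagging strand. E2F transcription factors, which the retinoblastoma proteins restrain until late G1, switch on many of these genes together, so that their messenger RNAs are abundant in dividing cells and scarce in resting ones.

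Library totals were 11.1 M to 34.4 M counts, with a median of 23.4 M. Levels are counts-per-million (CPM) values on library totals scaled by the TMM method, and log2 changes come from an edgeR quasi-likelihood fit to all 60 libraries, with an approximate standard error after each ±. A gene was called when its p, adjusted by the Benjamini-Hochberg method over all 16608 genes of that comparison, was below 0.05. Shares of all genes that were called, rose or fell come from that edgeR fit and threshold. Counts of members by other fits, or at an unadjusted p under 0.05, are given without such a share. Whether the 3 libraries of each group stem from separate cultures is not stated, and the p-values cover only the spread between them, which may be technical. Bulk RNA also cannot tell fewer cells in S phase from less messenger RNA per cell. The first part of the library code differs between the vehicle (A1), wortmannin (1), both gingers (2), Scutellariae Radix and Pinelliae Tuber (3), and Zizyphi Fructus and Coptidis Rhizoma (4), and what it stands for is not given. Treated and vehicle libraries thus always have unlike codes, while the doses of any 1 extract share theirs. The titles of all 60 libraries begin with the same label, BatchA. The 8 epithelial markers summed to 10414 to 15341 CPM per library, and 10 markers of fibroblasts, leukocytes, endothelium and liver to 4.9 to 8.87 CPM. In 4 libraries, chosen after the data were seen because they stood apart on the second principal component, ribosomal-protein genes took 6.32% to 8.23% of the counts. These were replicate 3 of Zizyphi Fructus high (8.23%), replicate 1 of vehicle (6.92%), replicate 1 of fresh ginger low (6.35%) and replicate 2 of ginger high (6.32%). Some replication genes were also high in these libraries, as given beside the results.

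With Coptidis Rhizoma at the high dose most of the replication machinery was expressed at a lower level. Against the low dose, 36 of the 42 genes fell and 0 rose, in a comparison in which 25.3% of all genes tested fell and 27.1% rose. The median log2 change of the 42 was -0.62, against 0.0013 over all genes tested. All 12 helicase genes, all 5 genes of nucleotide supply and uracil removal and both E2F factors fell. The largest falls were in ORC1, LIG1, MCM4 and FEN1, which dropped below the low-dose level by more than a log2 of 1.

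The summed level of the 42 genes was 2645 ± 9.6 CPM at the high dose, 4145 ± 49.2 CPM at the low dose and 4270 ± 78.1 CPM in vehicle (SD, n = 3 each). In 38 of the 42 genes all 3 high-dose libraries lay below every one of the 57 other libraries of the series, as they did in 11.3% of all genes tested. In 39 genes the high dose had the lowest mean of the 20 groups, as it did in 29.1% of all genes. The exceptions to the lowest mean were RFC1, PRIM1 and RPA2. The plot of the summed level shows this group alone below the others.

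**Figure D1:**
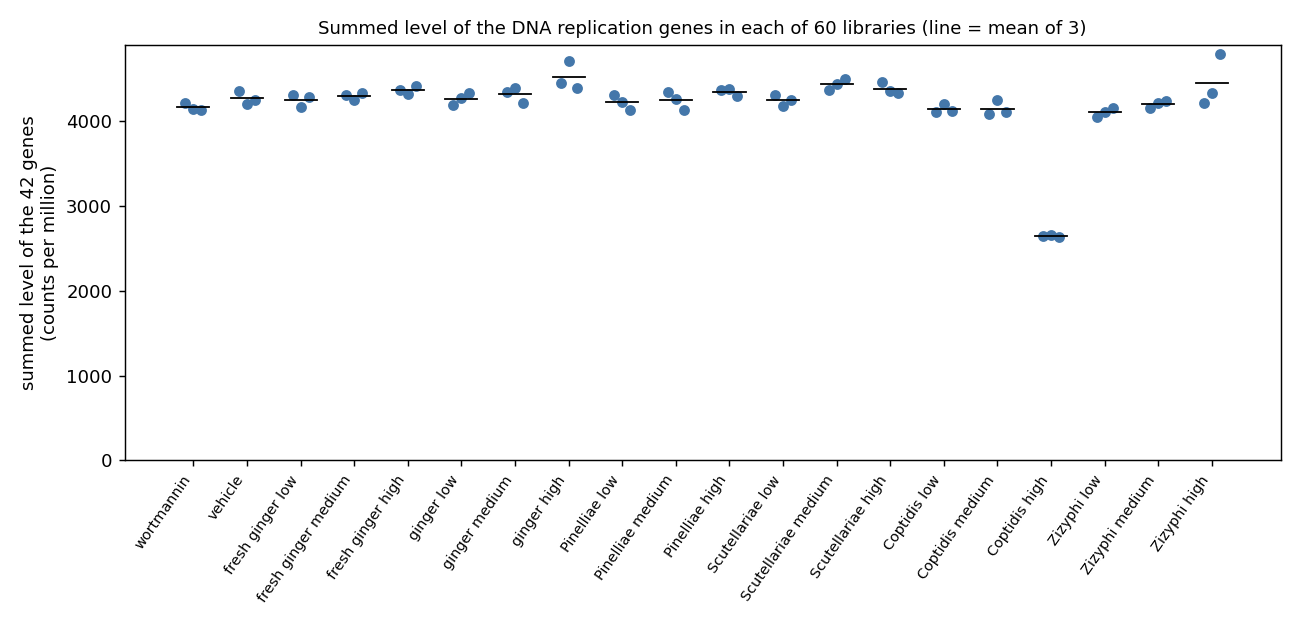
Summed level of the 42 replication genes as counts-per-million (vertical axis) in each of the 60 libraries, by group, with a line at each group's mean of 3. The 3 Coptidis Rhizoma high libraries lie between 2636 and 2655, and the lowest of the other libraries lies at 4050.0.

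The changes of the licensing genes at the high dose of Coptidis Rhizoma ranged widely. ORC1 (ENSG00000085840, chromosome 1: 52372829-52404459, minus strand, GRCh38, GENCODE 29), the largest subunit of the origin recognition complex, had 14, 13.1 and 14.2 CPM at the high dose and 33.1, 31.1 and 31.5 CPM at the low dose. The groups were far apart, and the log2 change of -1.21 ± 0.07 was the largest fall of the 42 genes (adjusted p = 2.39e-21). CDC6, the loader that recruits the MCM ring, had 70.0, 69.6 and 71.9 CPM at the high dose and 78.1, 75.2 and 76.6 CPM at the low dose. These values did not overlap either, but the change was only -0.12 ± 0.04 (adjusted p = 0.0124), and it was not called when libraries were scaled by their totals, when no filter on low counts was used or without low replicate 1. CDT1, the partner of CDC6 in loading, fell by 0.40 (adjusted p = 5.09e-06). ORC6, the smallest subunit of the complex, was not called (-0.13, adjusted p = 0.118).

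Of the helicase genes, MCM4 (ENSG00000104738) changed most, with 152, 150.2 and 154 CPM at the high dose and 331, 314 and 316 CPM at the low dose. Its high-dose level was 0.475 times the low-dose level, a log2 change of -1.07 ± 0.04 (adjusted p = 1.83e-28). MCM2, another subunit of the same ring, had 122, 127 and 126 CPM at the high dose and 212, 213 and 203 CPM at the low dose, with no overlap. Its change was -0.74 ± 0.05 (adjusted p = 2.76e-18). The other ring subunits fell by 0.62 (MCM7) to 0.82 (MCM5). Of the 4 GINS subunits, GINS2 fell by 0.81, GINS3 by 0.57, GINS4 by 0.38 and GINS1 by 0.37. MCM10, which helps to start the helicase, fell by 0.69, and CDC45 by 0.45.

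Of the sliding clamp and its loader, 4 of 6 genes fell. PCNA, the ring that holds the polymerases on DNA, had 123, 122 and 123 CPM at the high dose and 215, 228 and 213 CPM at the low dose, without overlap. It fell by 0.83 ± 0.09 (adjusted p = 2.65e-10). Among the 5 subunits of the loader, RFC5, RFC3 and RFC2 fell by 0.44, 0.33 and 0.26, whereas RFC4 (-0.16, adjusted p = 0.118) and the large subunit RFC1 were not called. RFC1 had 88.1, 96.2 and 98.4 CPM at the high dose and 95.5, 90.6 and 93.6 CPM at the low dose. These values overlapped, and the approximate 95% interval of the log2 change was -0.07 to 0.11.

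Of the polymerase genes 7 of 8 fell, by 0.31 (POLD3) to 0.85 (POLE2, a subunit of the leading-strand polymerase epsilon). The exception was within primase, the enzyme that lays down the RNA primers. Its catalytic subunit PRIM1 had 20.3, 20.2 and 19.7 CPM at the high dose and 19.5, 20.1 and 20.4 CPM at the low dose, which overlapped. The interval of its log2 change was -0.15 to 0.16. PRIM2, the large subunit of the same enzyme, had 10.9, 10.9 and 13.1 CPM at the high dose and 21.1, 21 and 20.5 CPM at the low dose. It fell by 0.84 ± 0.08 (adjusted p = 4.55e-13). The difference between the 2 subunits was not tested, and RFC1, PRIM1 and PRIM2 were chosen for this description after their values were seen.

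On the lagging strand, LIG1 (ENSG00000105486, chromosome 19: 48115445-48170603, minus strand), the ligase that seals the fragments, had 47.3, 47.1 and 47 CPM at the high dose and 99.1, 103 and 101 CPM at the low dose. FEN1 (ENSG00000168496, chromosome 11: 61792637-61797244, plus strand), which cuts off the displaced flaps, had 73.2, 71.4 and 70.0 CPM at the high dose and 141, 155 and 150.2 CPM at the low dose. In both genes the high-dose libraries were all below the low-dose ones, with log2 changes of -1.10 ± 0.05 (adjusted p = 1.08e-23) and -1.06 ± 0.07 (adjusted p = 2.64e-19). Replication protein A, the trimer that coats single-stranded DNA, changed less. Its large subunit RPA1 fell by 0.36 ± 0.04 (adjusted p = 2.85e-11). RPA2 (-0.07, adjusted p = 0.376) and RPA3 (-0.32, adjusted p = 0.0770) were not called.

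Genes of nucleotide supply fell as well. RRM2, the S-phase subunit of ribonucleotide reductase, had 152, 149 and 153 CPM at the high dose and 272, 281 and 271 CPM at the low dose, with a log2 change of -0.86 ± 0.06 (adjusted p = 5.9e-18). Its partner RRM1 fell by 0.53, thymidylate synthase (TYMS) by 0.81 and thymidine kinase (TK1) by 0.56. UNG, the glycosylase that removes uracil from DNA, had 62.4, 63.1 and 61.3 CPM at the high dose and 116, 122 and 120.1 CPM at the low dose, with no overlap. It fell by 0.94 ± 0.04 (adjusted p = 3.96e-25). The factors themselves fell too. E2F1 had 46.9, 39.8 and 36.3 CPM at the high dose and 67.3, 76.1 and 73.6 CPM at the low dose. E2F2 had 5.88, 6.6 and 6.8 CPM at the high dose and 10.4, 9.19 and 11.6 CPM at the low dose. In neither gene did the doses overlap, with log2 changes of -0.82 ± 0.09 (adjusted p = 3.29e-10) and -0.68 ± 0.09 (adjusted p = 1.84e-08).

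**Figure D2:**
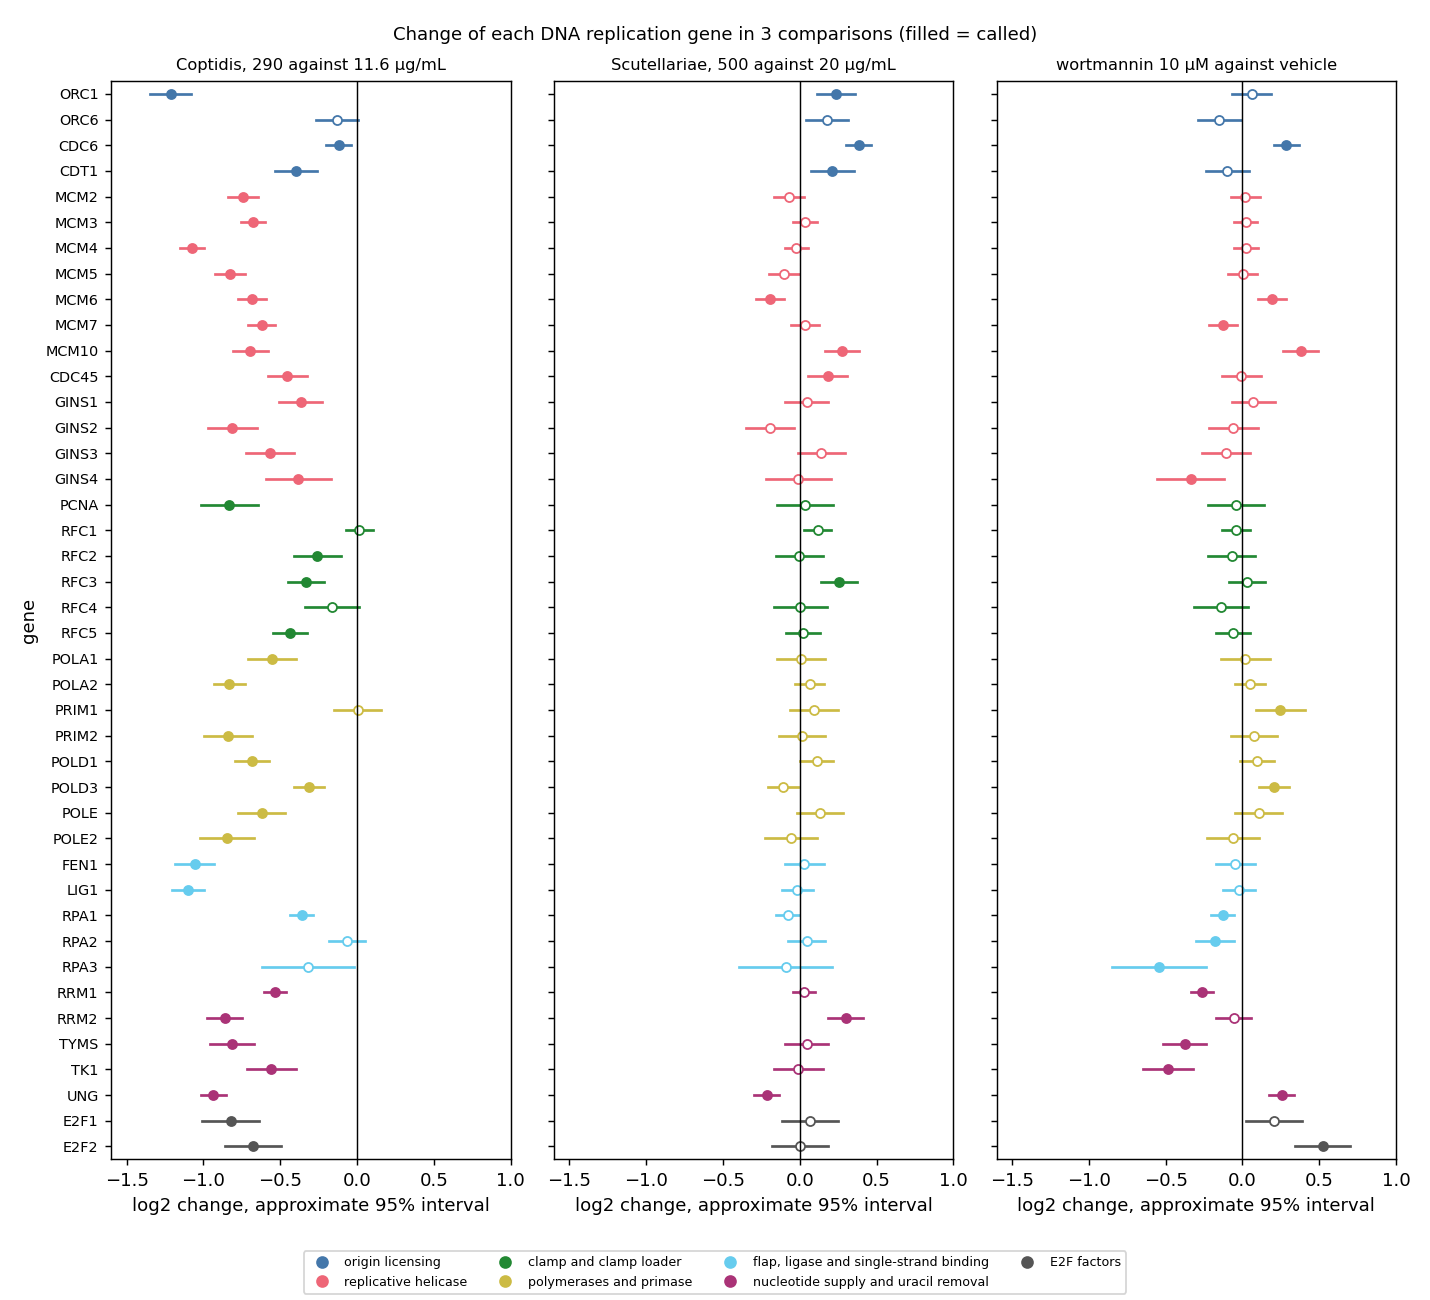
Log2 change of each of the 42 genes (rows, coloured by role) in 3 comparisons, with approximate 95% intervals. Filled points were called. With Coptidis Rhizoma, high against low dose, 36 points lie called on the left, with Scutellariae Radix 7 lie called on the right and 2 on the left, and with wortmannin 7 on the right and 8 on the left.

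Among the 3 doses of Coptidis Rhizoma the fall lay between 58 and 290 µg/mL. High against medium dose, 38 of the 42 genes fell (22.2% of all genes tested fell and 24.4% rose), with a median of -0.62 against -0.0005 over all genes. Medium against low dose, edgeR called 0 of the 42 (1.3% of all genes were called), with 2 at an unadjusted p under 0.05 and 0 called by DESeq2. The medium-dose levels of ORC1 were 31.5, 33.8 and 34.1 CPM, which overlapped the low-dose values, and those of LIG1 95.9, 96.1 and 89.2 CPM, just below them. Against vehicle, 40 of the 42 fell at the high dose (27.1% of all genes fell and 26.6% rose), with ORC1 at -1.19, LIG1 at -1.13 and FEN1 at -1.21. RFC1 and PRIM1 were the 2 genes not called.

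Against vehicle the lower doses gave few calls. At the medium dose PRIM1 (0.29 ± 0.08, adjusted p = 0.0197) and E2F2 (0.32 ± 0.09, adjusted p = 0.0259) rose, in a comparison in which 3.63% of all genes rose. E2F2 had 10.9, 11.2 and 11 CPM at that dose and 8.74, 9.0 and 8.81 CPM in vehicle, without overlap. Leaving out 1 library lost the call of E2F2 in 6 of 6 fits (adjusted p up to 0.0872) and that of PRIM1 in 4 of 6 (up to 0.0950). Neither was called when libraries were scaled by their totals, and 7 other members were then called lower. At the low dose ORC6 alone was called (-0.32 ± 0.07, adjusted p = 0.0137; 0.175% of all genes fell). ORC6 had 33.3, 37.5 and 33.8 CPM at the low dose and 48.7, 40.3 and 42.3 CPM in vehicle, where the highest value belongs to replicate 1, and the call was lost without that library or without low replicate 1 or 3 (adjusted p up to 0.345).

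Other measures moved with the high dose of Coptidis Rhizoma. Transcripts of the mitochondrial genome took 11.8 to 12.2% of the counts at the low dose, 12.9 to 13.7% at the medium dose and 3.77 to 3.99% at the high dose. Ribosomal-protein genes took 6.43 to 7.24% at the high and 5.26 to 5.58% at the low dose. Their part in the result was not tested. Scaled by library totals, the median log2 change of all genes was 0.09 high against low and 0.12 high against medium, and 35 and 36 of the 42 fell.

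The wider set of S-phase genes followed the same direction with exceptions. Of 59 other replication and S-phase genes, 41 fell and 8 rose between the high and low doses (median -0.37), where 25.3% of all genes fell and 27.1% rose. CCNE2, the cyclin that drives entry into S phase, fell by 1.21 ± 0.11 (adjusted p = 9.91e-14), and CDC25A, the phosphatase that activates its kinase, by 1.03 ± 0.05 (adjusted p = 4.66e-23). UHRF1, which maintains DNA methylation behind the fork, and ATAD5, which unloads PCNA, fell by 0.93 and 0.92. Among the 8 that rose were SAMHD1, which breaks down deoxynucleotides (0.77), the small polymerase delta subunit POLD4 (0.76) and the p53-inducible reductase subunit RRM2B (0.39), named after their values were seen. Of 21 mitosis genes 17 fell and 0 rose. Their median was -0.33, and the largest fall was CENPE, a kinetochore motor (-0.52). Of 16 tested genes of G1 control 5 rose and 4 fell, shares near those of all genes. CDKN1A, which encodes the cyclin-dependent kinase inhibitor p21, had 53.4, 52.9 and 49.9 CPM at the high dose and 15.2, 14.8 and 14.7 CPM at the low dose. It rose 3.49-fold, a log2 change of 1.80 ± 0.08 (adjusted p = 4.21e-26). CDKN2B (p15) rose by 0.73 and cyclin D1 (CCND1) by 0.49.

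The promoters of these genes were also read for letters bound by E2F factors. As E2F factors switch on many genes of such a list, a high share can come from the choice of genes alone. Whether E2F factors had a part in the changes was not tested. RefSeq gives a window from 250 bases before to 50 bases after the transcription start (GRCh38.p14) for 36 of the 42 genes. The letters TTTCGCGC, TTTGGCGC, TTTCCCGC or TTTGCCGC, on either strand, occurred in 20 of the 36 (55.6%), against 4.0% of 27305 genes in the RefSeq table and 6.4% of the 11232 of them that were tested here. Read in the same way, the CCAAT box was in 61.1% of the 36 and 42.8% of the tested genes. The GC box GGGCGG was in 72.2% and 74.7%, and TTTGAA, the letters of the cell cycle homology region of many mitosis genes, in 5.6% and 13.7%. The 20 genes with the E2F letters all fell with Coptidis Rhizoma, high against low dose, with a median of -0.68 and a range of -1.10 to -0.12. Of the 16 without them, 12 fell, with a median of -0.49 and a range of -1.21 to 0.02, so the ranges overlapped. With wortmannin the genes with the letters had a median of 0.02 (4 rose and 2 fell) and those without -0.052 (2 rose and 3 fell). With Scutellariae Radix, high against low dose, the medians were 0.034 (3 rose and 2 fell) and 0.062 (4 rose and 0 fell). A match is a description of these letters, not a site shown to be bound. Only exact matches were counted, so a promoter without one may still hold similar letters. MCM4, MCM5, GINS4, POLD3, RPA2 and RPA3 had no window and are in neither set.

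The promoters of 4 genes with the letters and 2 without are printed 5′ to 3′, with the E2F letters in capitals, to show both kinds beside their changes. CDC6 (chr17:40287629-40287928, plus strand), the gene most often called higher, MCM2 (chr3:127598161-127598460, plus strand), with overlapping matches on both strands, LIG1 (chr19:48170295-48170594, minus strand) and E2F1 (chr20:33686336-33686635, minus strand), with a match on each strand, hold them. ORC1 (chr1:52404374-52404673, minus strand), which fell most, and PRIM1 (chr12:56752274-56752573, minus strand), which was not called, do not hold them.
CDC6: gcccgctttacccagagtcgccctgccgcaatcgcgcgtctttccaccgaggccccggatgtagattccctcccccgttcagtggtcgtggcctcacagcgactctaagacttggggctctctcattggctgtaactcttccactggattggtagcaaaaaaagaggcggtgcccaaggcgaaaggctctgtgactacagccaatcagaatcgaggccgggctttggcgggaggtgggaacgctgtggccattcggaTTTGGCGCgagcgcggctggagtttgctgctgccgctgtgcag
MCM2: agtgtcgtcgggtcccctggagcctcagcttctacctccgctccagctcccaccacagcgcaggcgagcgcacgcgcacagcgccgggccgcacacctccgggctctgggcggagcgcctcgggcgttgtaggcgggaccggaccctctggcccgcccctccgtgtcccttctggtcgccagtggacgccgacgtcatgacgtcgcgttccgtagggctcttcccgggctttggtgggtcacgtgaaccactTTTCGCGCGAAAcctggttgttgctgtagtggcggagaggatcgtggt
LIG1: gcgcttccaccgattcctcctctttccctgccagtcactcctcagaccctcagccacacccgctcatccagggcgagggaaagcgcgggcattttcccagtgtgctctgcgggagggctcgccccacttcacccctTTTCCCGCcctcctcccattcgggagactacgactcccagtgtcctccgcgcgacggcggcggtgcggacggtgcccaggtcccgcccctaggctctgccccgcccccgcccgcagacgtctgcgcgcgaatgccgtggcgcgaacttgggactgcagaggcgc
E2F1: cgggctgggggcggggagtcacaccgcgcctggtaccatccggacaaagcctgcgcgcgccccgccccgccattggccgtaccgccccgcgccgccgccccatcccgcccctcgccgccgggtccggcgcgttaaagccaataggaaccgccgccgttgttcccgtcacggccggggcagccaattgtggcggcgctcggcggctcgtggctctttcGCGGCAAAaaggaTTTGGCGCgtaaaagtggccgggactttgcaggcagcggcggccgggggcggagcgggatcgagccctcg
ORC1: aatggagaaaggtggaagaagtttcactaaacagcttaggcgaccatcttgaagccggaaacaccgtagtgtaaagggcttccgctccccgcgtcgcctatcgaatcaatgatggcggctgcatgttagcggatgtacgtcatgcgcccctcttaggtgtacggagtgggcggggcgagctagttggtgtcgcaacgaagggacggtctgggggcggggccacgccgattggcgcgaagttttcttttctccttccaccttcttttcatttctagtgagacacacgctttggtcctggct
PRIM1: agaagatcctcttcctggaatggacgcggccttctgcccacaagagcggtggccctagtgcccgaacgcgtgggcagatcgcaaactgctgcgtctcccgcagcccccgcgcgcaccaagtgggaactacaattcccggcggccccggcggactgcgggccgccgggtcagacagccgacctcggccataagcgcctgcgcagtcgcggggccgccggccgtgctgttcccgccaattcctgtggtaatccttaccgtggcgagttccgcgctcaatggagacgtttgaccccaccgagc

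With Scutellariae Radix at the high dose a small number of replication genes were higher. Against the low dose 7 of the 42 rose and 2 fell, in a comparison in which 7.92% of all genes rose and 8.42% fell. The 42 genes had a median of 0.031, against -0.011 over all genes. Scaled by library totals the same comparison gave 4 higher and 5 lower, with a median of -0.03. The genes that rose were CDC6, ORC1, CDT1, MCM10, CDC45, RRM2 and RFC3, and those that fell were UNG and MCM6.

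CDC6 (ENSG00000094804, chromosome 17: 40287633-40304657, plus strand) had 82.8, 83.2 and 77.6 CPM at the low dose, 91.6, 89.4 and 87.3 CPM at the medium dose and 107, 105 and 106 CPM at the high dose. No 2 doses overlapped. High against low the log2 change was 0.38 ± 0.04 (adjusted p = 2.34e-10), high against medium 0.24 ± 0.04 (adjusted p = 3.01e-05), and medium against low 0.14 ± 0.04 (adjusted p = 0.0429). ORC1 had 38.2, 36.1 and 39.1 CPM at the high dose and 33.4, 30.9 and 32.4 CPM at the low dose, with every high-dose library above the low-dose ones. The licensing genes that rose beside CDC6 were ORC1 (0.23 ± 0.06, adjusted p = 0.00580) and CDT1 (0.21 ± 0.07, adjusted p = 0.0326), while ORC6 had a log2 change of 0.18 (adjusted p = 0.0739). The calls of ORC1 and CDT1 were lost when libraries were scaled by their totals, and that of CDT1 also without high replicate 1 or 2 or low replicate 1 or 2.

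In the helicase, MCM10 had 41.9, 40.7 and 42.9 CPM at the high dose and 35.6, 34.5 and 33.9 CPM at the low dose. The groups did not overlap. MCM10 rose by 0.27 ± 0.06 (adjusted p = 0.000304) and CDC45 by 0.18 ± 0.06 (adjusted p = 0.0425), although the call of CDC45 was lost in 6 of 13 alternatives. MCM6, a ring subunit, fell instead. It had 108, 107 and 108 CPM at the high dose and 127, 122 and 119.7 CPM at the low dose, with no overlap and a log2 change of -0.19 ± 0.05 (adjusted p = 0.00156). The other 5 ring subunits were not called, with log2 changes between -0.10 and 0.035.

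RRM2 (ENSG00000171848, chromosome 2: 10120698-10131419, plus strand) had 362, 348 and 349 CPM at the high dose and 298, 275 and 288 CPM at the low dose. It rose by 0.30 ± 0.06 (adjusted p = 9.79e-05), and its doses did not overlap. The loader subunit RFC3 had 99.2, 97.8 and 93.7 CPM at the high dose and 81.2, 79.8 and 82.6 CPM at the low dose, without overlap, and rose by 0.25 ± 0.06 (adjusted p = 0.00145). UNG had 102, 107 and 104 CPM at the high dose and 123, 119 and 120.4 CPM at the low dose, with no overlap, and fell by 0.21 ± 0.04 (adjusted p = 8.4e-05). Neither E2F factor was called. E2F1 had 74.1 ± 2.86 CPM at the high dose and 70.7 ± 2.06 CPM at the low dose (SD, n = 3 each), and its log2 change was 0.07 ± 0.09 (adjusted p = 0.724).

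Some of these genes had already risen at 100 µg/mL. Medium against low dose, ORC1 (0.25), MCM10 (0.24), RFC1 (0.17) and CDC6 rose and 0 of the 42 fell (1.78% of all genes rose). The count of 4 was 0 with scaling by library totals and 1 without a filter on low counts, and leaving out 1 library at a time it was 1 to 4 (1 without medium replicate 1 or low replicate 3, and 2 without low replicate 1 or 2). High against medium dose, only CDC6 rose, and MCM6 (-0.24) and UNG (-0.16) fell (2.46% and 2.63% of all genes). ORC1 had 40.1, 38.7 and 36.2 CPM at the medium dose, which overlapped its high-dose values. Against vehicle 8 rose and 3 fell at the high dose (9.72% and 10.6% of all genes), 6 rose and 0 fell at the medium dose (3.56% of all genes rose), and edgeR called 0 at the low dose (0.126% of all genes were called), with 1 at an unadjusted p under 0.05 and 0 called by DESeq2. CDC6 changed most at the high dose (0.45 ± 0.04, adjusted p = 1.46e-12).

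Of the 59 other S-phase genes 9 rose and 2 fell with Scutellariae Radix, high against low dose, where 7.92% of all genes rose and 8.42% fell. CCNE2 rose by 0.34 (adjusted p = 0.0107), the repressive factor E2F8 by 0.31, the origin-firing factor TICRR by 0.28 and DBF4, which activates the CDC7 kinase, by 0.26. Of the mitosis genes PLK1 rose (0.14), and KIF20A (-0.19) and CCNB2 (-0.14) fell. Of the G1 genes 3 rose and 3 fell, among them CDKN2C (-0.45) and TFDP2 (-0.42). CDKN1A had 30.9, 30.7 and 30.6 CPM at the high dose and 16, 13.9 and 14.9 CPM at the low dose and rose 2.06-fold (adjusted p = 3.33e-15). CDKN1A was thus higher at the high dose of both extracts, while CCNE2 was higher at that of Scutellariae Radix and lower at that of Coptidis Rhizoma.

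The dose responses of the 2 extracts were compared directly, as the Scutellariae Radix change minus the Coptidis Rhizoma change, each high against low dose. The difference was called above 0 in 36 of the 42 genes and below 0 in 0, against 17.8% above and 20.9% below of all genes tested, and its median was 0.65 (-0.02 over all genes). Scaled by library totals, the median of all genes was -0.17 and 32 of the 42 were called above 0. It was 1.45 ± 0.09 for ORC1 (adjusted p = 2.07e-18), 1.16 ± 0.08 for RRM2 (adjusted p = 9.76e-17) and 1.09 ± 0.09 for FEN1 (adjusted p = 4.85e-14). All 7 genes that rose with Scutellariae Radix, high against low dose, fell with Coptidis Rhizoma, as did 36 of all 42 genes. The top doses differ, 500 µg/mL of one extract and 290 µg/mL of the other, and the 2 extracts have different library codes.

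With wortmannin 15 of the 42 genes changed, in both directions. Of these 7 rose and 8 fell, where 9.72% of all genes tested rose and 10.8% fell, and the median of the 42 was -0.015 (0.0048 over all genes). E2F2, CDC6, MCM10, MCM6, PRIM1, POLD3 and UNG rose. TK1, TYMS and RRM1, which supply nucleotides, all 3 subunits of replication protein A, GINS4 and MCM7 fell. Scaled by library totals, which moves the median of all genes to 0.056, 9 rose and 4 fell.

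E2F2 (ENSG00000007968, chromosome 1: 23506430-23531220, minus strand), an activating E2F factor, had 13.4, 11.8 and 13.1 CPM with wortmannin and 8.74, 9.0 and 8.81 CPM in vehicle. The groups did not overlap, and the log2 change was 0.52 ± 0.09 (adjusted p = 2.93e-05). E2F1 had 86, 82.9 and 87 CPM with wortmannin and 85.9, 71.2 and 65.6 CPM in vehicle, which overlapped through vehicle replicate 1, and was not called (0.20 ± 0.09, adjusted p = 0.119). MCM10 had 41.1, 44.7 and 43.9 CPM with wortmannin and 31.9, 33 and 34.8 CPM in vehicle and rose by 0.38 ± 0.06 (adjusted p = 1.97e-06). CDC6 had 92.9, 95.9 and 93.7 CPM with wortmannin and 74.8, 76.4 and 80.8 CPM in vehicle and rose by 0.28 ± 0.04 (adjusted p = 7.55e-07). In both genes every wortmannin library exceeded every vehicle library. UNG rose by 0.26 (adjusted p = 4.87e-06), MCM6 by 0.19, POLD3 by 0.21 and PRIM1 by 0.25, the last with a call that was lost in 5 of 13 alternatives.

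TK1 (ENSG00000167900, chromosome 17: 78174075-78187233, minus strand), which salvages thymidine, had 128, 120.4 and 121 CPM with wortmannin and 189, 164 and 164 CPM in vehicle. It fell by 0.48 ± 0.08 (adjusted p = 1.77e-05), with no overlap. TYMS, which makes thymidylate anew, had 120.2, 117 and 116 CPM with wortmannin and 162, 149 and 148 CPM in vehicle and fell by 0.38 ± 0.07 (adjusted p = 0.000100). RRM1 fell by 0.26 ± 0.04 (adjusted p = 3.23e-07), whereas its partner RRM2 was not called (-0.06, adjusted p = 0.539). RPA3, the smallest subunit of replication protein A, had 24.7, 27.1 and 22.9 CPM with wortmannin and 46.6, 33.4 and 29.6 CPM in vehicle, where replicate 1 is the highest. Its change was -0.54 ± 0.16 (adjusted p = 0.0102), and -0.34 without that library (adjusted p = 0.174), and the call was also lost without wortmannin replicate 3. GINS4 had 8.52, 8.05 and 7.82 CPM with wortmannin and 10.2, 10.5 and 10.1 CPM in vehicle, without overlap. GINS4 (-0.34), RPA2 (-0.18), RPA1 (-0.13) and MCM7 (-0.13) fell too, each with a call that was lost in at least 5 of 13 alternatives. TYMS shares 967 exon bases with ENOSF1 on the opposite strand, and 100.0% of its values held reads divided between genes. The same was true of 93.3% of those of GINS4 and 70.0% of those of MCM7, so the counts of these 3 genes are uncertain. It held also for RFC5 (98.3%), ORC6 (96.7%) and GINS3 (91.7%). RRM2 and POLA2 share 1077 and 2012 bases with the annotated genes AC007240.1 and AP000944.2 on their own strand. PRIM1 likewise shares 362 bases with AC117378.1 and 33 with NACA, and 1.7% of its values held divided reads. POLD1, POLD3 and FEN1 share 426, 123 and 49 bases with AC020909.1, AP001372.2 and FADS2. The same limits hold in every comparison of these genes.

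**Figure D3:**
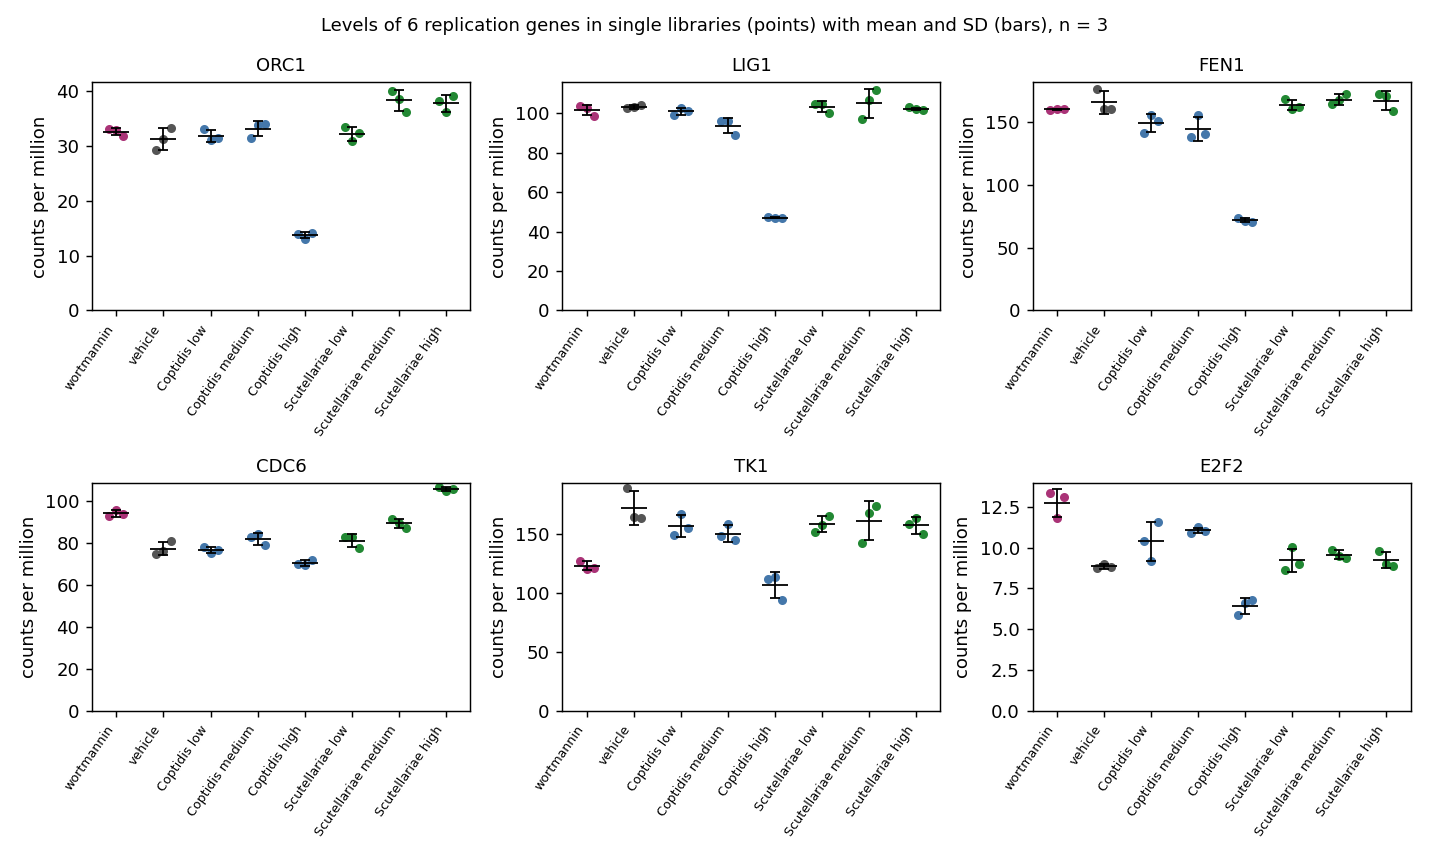
Levels of 6 replication genes as counts-per-million (vertical axes, from 0) in single libraries (points), with the mean and SD of 3 (bars), for wortmannin, vehicle and the 3 doses of 2 extracts. ORC1, LIG1 and FEN1 are lowest in all 3 Coptidis Rhizoma high libraries, CDC6 is highest with Scutellariae Radix high (105 to 107), TK1 is lower with wortmannin (120.4 to 128) than in vehicle, and E2F2 is higher with wortmannin than in vehicle.

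Genes of mitosis were lower with wortmannin almost throughout. Of 21 mitosis genes 20 fell and 0 rose, with a median of -0.55, led by PTTG1 (-1.19), CCNB1 (-0.96) and PLK1 (-0.85). Of the 59 other S-phase genes 6 rose and 9 fell (median 0.013), where those shares of all genes were 9.72% and 10.8%. SAMHD1 rose by 0.89 (adjusted p = 2.21e-16) and CCNE2 by 0.60 (adjusted p = 8.62e-06), while thymidylate kinase DTYMK fell by 0.65 (adjusted p = 0.000767) and cyclin A2 (CCNA2), which acts from S phase to mitosis, by 0.52 (adjusted p = 1.76e-10). In G1 control, 3 genes rose and 5 fell, with CDKN2C, the inhibitor p18, at -0.54, CDK6 at 0.35 and the E2F partner TFDP2 at 0.27.

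Wortmannin against vehicle and Coptidis Rhizoma, high against low dose, share no library, and their changes are set side by side in the plot of both. Of the 36 genes that fell with Coptidis Rhizoma, 6 rose with wortmannin (CDC6, E2F2, MCM10, MCM6, POLD3 and UNG) and 6 fell (GINS4, MCM7, RPA1, RRM1, TK1 and TYMS). These are 6 of the 7 genes that rose with wortmannin and 6 of the 8 that fell, while 36 of all 42 genes fell with Coptidis Rhizoma. MCM6 and UNG rose with wortmannin and fell with Scutellariae Radix, high against low dose, while CDC6 and MCM10 rose with both.

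**Figure D4:**
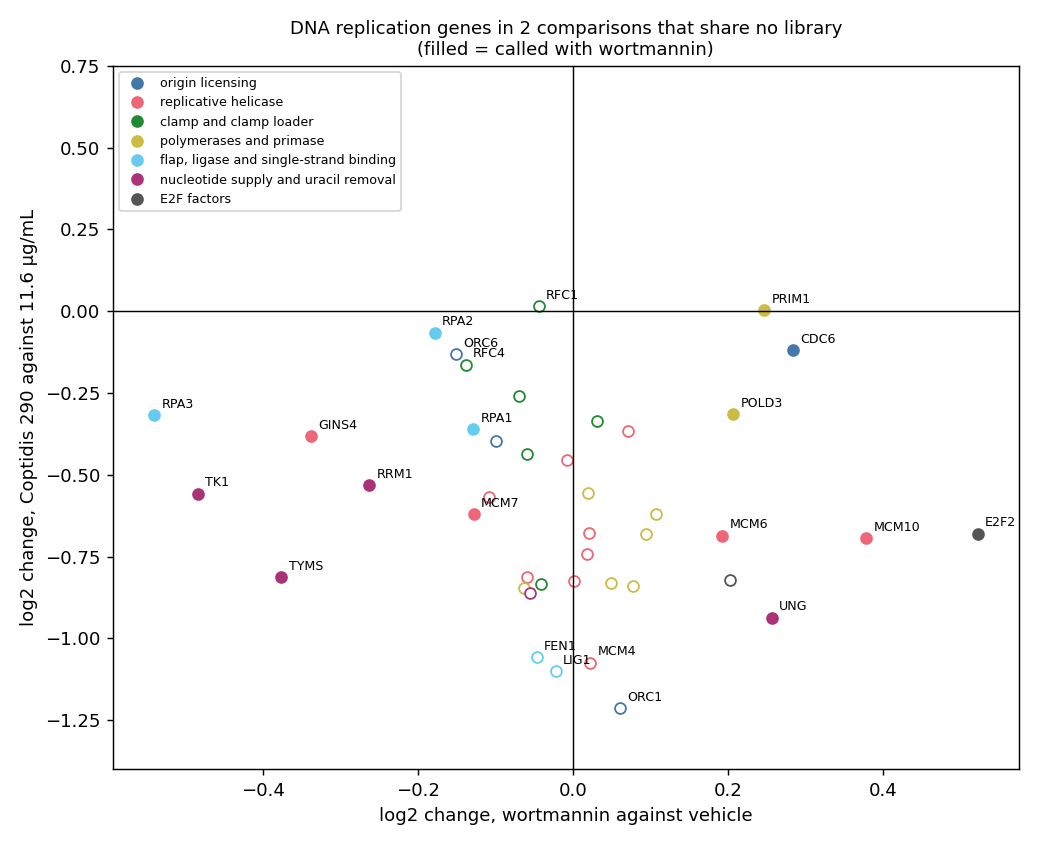
Log2 change of each of the 42 genes with wortmannin against vehicle (horizontal axis) and with Coptidis Rhizoma 290 against 11.6 µg/mL (vertical axis), coloured by role; filled points were called with wortmannin. On the vertical axis 40 of the 42 points lie below 0, and they spread to both sides of 0 on the horizontal axis, between -0.54 (RPA3) and 0.52 (E2F2).

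With fresh ginger at the high dose 3 replication genes rose and 0 fell, both against its low dose (1.21% of all genes rose) and against vehicle (1.31%). They were CDC6, RRM2 and RFC3, all of which also rose with Scutellariae Radix. CDC6 had 94.6, 91 and 90.2 CPM at the high dose and 75.2, 80.4 and 80.2 CPM at the low dose, with no overlap and a log2 change of 0.22 ± 0.04 (adjusted p = 0.000883). RRM2 had 306, 344 and 349 CPM at the high dose and 247, 313 and 284 CPM at the low dose. These overlapped, and the change of 0.24 ± 0.06 (adjusted p = 0.0149) was not called without high replicate 2 or 3, without low replicate 3 or without low replicate 1, one of the 4 libraries that stood apart (adjusted p up to 0.320). RFC3 had 91.8, 99 and 97.6 CPM at the high dose and 79.4, 88.7 and 72.4 CPM at the low dose. RFC3 rose by 0.26 ± 0.06 (adjusted p = 0.0135) and its call was lost without high replicate 2 or 3 or low replicate 1 or 3. Fitted on the 6 compared libraries by themselves, neither comparison called any of the 3. Against vehicle, leaving out 1 library lost the call of RRM2 in 4 of 6 fits (adjusted p up to 0.136, without vehicle replicate 1), that of RFC3 in 5 of 6 (up to 0.189, without high replicate 2) and that of CDC6 in 0 of 6. High against low dose, 0 of the 59 other S-phase genes rose and 0 fell, of the mitosis genes 1 rose and 0 fell, and of the G1 genes 1 rose and 0 fell, with the kinase TTK at 0.27 and CDKN1A at 0.32. Against vehicle, edgeR called 0 members at the medium dose and 0 at the low dose (0% of all genes in both), with 8 and 2 at an unadjusted p under 0.05 and 0 and 0 called by DESeq2.

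Ginger, Pinelliae Tuber and Zizyphi Fructus gave no call among the 42 genes with edgeR at any dose against vehicle or between the high and low doses. For ginger, high against low dose, 8 members had an unadjusted p under 0.05 and DESeq2 called 0 (0.915% of all genes were called by edgeR). The smallest p belonged to FEN1 (0.19 ± 0.06, adjusted p = 0.169) and MCM7 (0.14 ± 0.05, adjusted p = 0.172). For Pinelliae Tuber 4 had one and DESeq2 called 0 (0.0421% of all genes called by edgeR), with MCM10 at 0.15 ± 0.06 and RRM1 at 0.08 ± 0.04 (adjusted p = 1.0 each). Against vehicle the shares of all genes called were 0%, 0.012% and 0.789% for ginger low, medium and high. For Pinelliae Tuber they were 0.012%, 0.0482% and 0.187%, and for Zizyphi Fructus 0.012%, 0% and 0.0181%. Over these comparisons, the members with an unadjusted p under 0.05 numbered 1 to 11 and DESeq2 called 1 member in ginger high and 0 in the others. The shares of all genes at that unadjusted p, or called by DESeq2, are not given here.

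With Zizyphi Fructus, high against low dose, 21 members had an unadjusted p under 0.05, edgeR called 0 (0.0482% of all genes were called) and DESeq2 called 11, all higher. The smallest p belonged to GINS2 (0.33 ± 0.08) and PCNA (0.37 ± 0.09), each with an adjusted p of 0.0620. PCNA had 216, 248 and 343 CPM at the high dose and 195, 205 and 223 CPM at the low dose. High-dose replicate 3, one of the libraries that stood apart, held the highest value of all 60 libraries, and without it edgeR called 0 members. Without high replicate 1, which leaves that library with 1 other, it called 21, and without high replicate 2 it called 13. What share of all genes DESeq2 or these fits called is not given here. The counts of 11, 21 and 13 thus cannot be set against the 0.0482%.

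**Figure D5:**
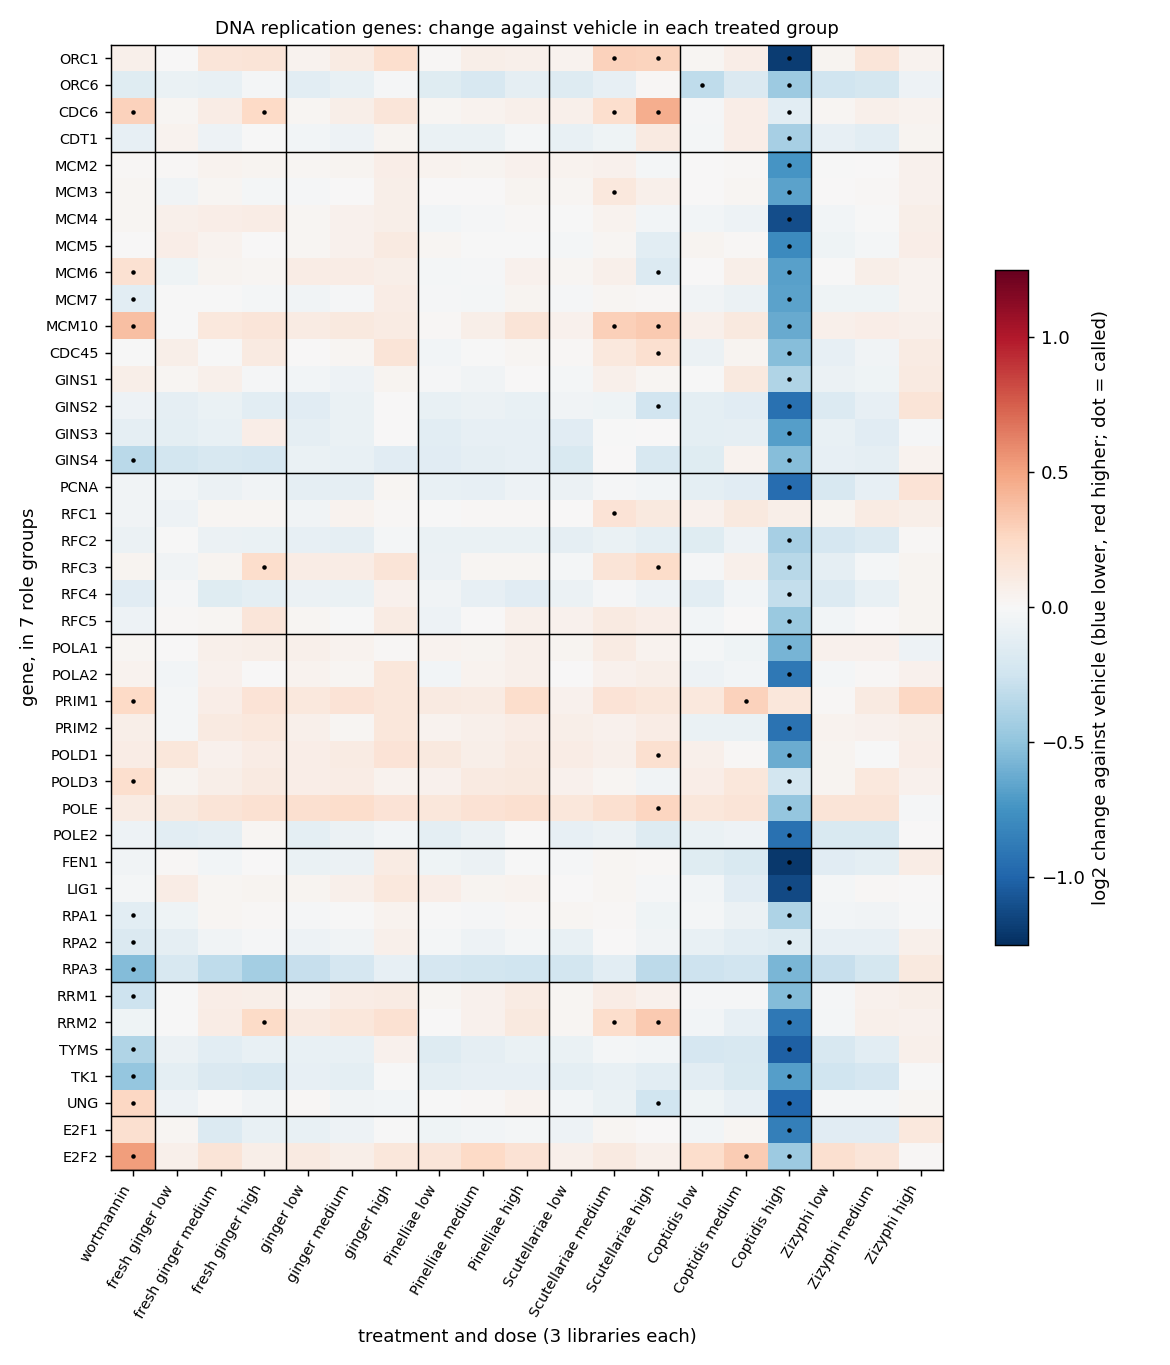
Log2 change of each of the 42 genes (rows, in 7 role groups) against vehicle in 19 treated groups (columns); colour gives the change, blue lower and red higher, and a dot marks a call. The Coptidis Rhizoma high column is called lower in all but RFC1 and PRIM1, wortmannin holds dots of both colours, and CDC6 is called higher in 4 columns.

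Across all 20 groups most levels lay close together apart from the high dose of Coptidis Rhizoma. MCM2 averaged 125 ± 2.72 CPM there and, in the 19 other groups, from 205 ± 7.31 CPM (Scutellariae Radix high) to 220.4 ± 8.37 CPM (ginger high) (SD, n = 3 each). PCNA averaged 123 ± 0.438 CPM there and elsewhere from 208 ± 14 CPM (Zizyphi Fructus low) to 269 ± 65.9 CPM (Zizyphi Fructus high). RRM2 averaged 151 ± 1.94 CPM there and elsewhere from 263 ± 2.67 CPM (Coptidis Rhizoma medium) to 353 ± 7.72 CPM (Scutellariae Radix high), with fresh ginger high (333 ± 23.3 CPM) and Scutellariae Radix medium (328 ± 12.9 CPM) next below the top. E2F1 averaged 41 ± 5.4 CPM there and elsewhere from 65.9 ± 2.83 CPM (fresh ginger medium) to 85.3 ± 2.14 CPM (wortmannin). E2F2 averaged 6.43 ± 0.485 CPM there and elsewhere from 8.85 ± 0.132 CPM (vehicle) to 12.7 ± 0.844 CPM (wortmannin), with Coptidis Rhizoma medium (11.1 ± 0.162 CPM) next below wortmannin. Vehicle was thus the second lowest group for E2F2. CDC6 averaged 70.5 ± 1.23 CPM there and elsewhere from 76.7 ± 1.45 CPM (Coptidis Rhizoma low) to 106 ± 1.11 CPM (Scutellariae Radix high), with wortmannin (94.2 ± 1.57 CPM), fresh ginger high (91.9 ± 2.34 CPM) and Scutellariae Radix medium (89.4 ± 2.17 CPM) next below the top. In CDC6 the libraries of wortmannin and fresh ginger high overlapped, and the difference between these groups was not tested.

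CDC6 was the gene most often called higher, in 8 of 29 comparisons. These were comparisons of Scutellariae Radix, fresh ginger and wortmannin that share libraries, so they are not separate observations. CDC6 fell in the 3 comparisons with the high dose of Coptidis Rhizoma, where its change was the smallest of those called high against low dose. MCM2 and LIG1, by contrast, were called in those 3 comparisons and in no other, as were MCM4, PCNA and FEN1 among further members.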

How the data were processed

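RNA of 60 libraries of HT29 cells was sequenced as 100 bp paired ends with a strand-marking kit, per the labels. The submitters' processing notes name STAR 2.7.3a, RSEM 1.3.3, FastQC 0.11.9 and Trim Galore 0.6.5, and the build GRCh38. The annotation release and strand setting are not given in the sources used here. The authors deposited 1 table of RSEM expected counts per gene, in which reads that fit several genes are divided among them. Of its values 8.755% were not whole, and they were rounded to whole counts. A further 210 columns of the table were not used. The members and gene lists were chosen with earlier results of these data known.

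Symbols and positions are those of GENCODE 29, and promoters those of RefSeq. Genes were filtered with filterByExpr. The edgeR 4.0.16 quasi-likelihood fit (R 4.3.3, limma 3.58.1, TMM scaling) held 1 coefficient per group over 60 libraries, with 40 residual degrees of freedom. P-values of 29 comparisons and 1 difference of comparisons were each adjusted over 16608 genes (Benjamini-Hochberg). The approximate SE is the size of the log2 change over the square root of its F, and the 95% interval is 1.96 SE on each side. Alternatives were DESeq2 1.42.0, its size factors, library totals, no filter, a replicate block, the libraries compared alone, leaving out 1 library (with the tested genes and dispersion trend of the whole fit), and leaving out the 4 libraries that stood apart. Members given by library are those called with the largest changes (up to 6 for wortmannin and each high against low comparison), beside CDC6, E2F1, E2F2, RRM2, PCNA and MCM2. Same-numbered libraries deviated together, with every correlation above 0.1, only for fresh ginger low and vehicle (1 of the 29), where 0 members were called with or without the block. No 2 libraries agreed within sampling noise. In a comparison of 3 with 3 libraries an exact permutation test cannot go below 0.1, so none was used.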

Additional observations from a re-analysis of the deposited data

Results flagged for a closer look

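The dose responses of Scutellariae Radix and Coptidis Rhizoma differed in 36 of the 42 genes by the test of the difference itself in edgeR. Of all genes tested, 17.8% were called above 0 and 20.9% below 0 in the same test. The Scutellariae Radix change, high against low dose, minus the Coptidis Rhizoma change was 1.45 for ORC1, 1.16 for RRM2 and 1.09 for FEN1 on the log2 scale. No sample was tested for standing apart from its group, since each group has 3 libraries.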

How the results depend on the processing

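Under the replicate block the count of members called in Scutellariae Radix medium against low was 5 in place of 4, and it changed in no other comparison. Same-numbered libraries are otherwise not known to be paired. Scaling by library totals gave 7 in place of 2 for Coptidis Rhizoma medium against vehicle and 0 in place of 4 for Scutellariae Radix medium against low. Without a filter on low counts, fresh ginger medium, ginger medium, ginger low, Coptidis Rhizoma medium and Zizyphi Fructus medium against vehicle and Scutellariae Radix medium against low each gave 1, Zizyphi Fructus low against vehicle gave 2 and Zizyphi Fructus high against low gave 8. Without the 4 libraries that stood apart, Coptidis Rhizoma low against vehicle gave 0 and Scutellariae Radix high against medium 6. A fit of the compared libraries alone gave 0 for fresh ginger high against vehicle, fresh ginger high against low and Coptidis Rhizoma low against vehicle, 1 for Scutellariae Radix medium and Coptidis Rhizoma medium against vehicle, and 15 for Scutellariae Radix high against low. DESeq2 gave 1 for ginger high and 4 for Coptidis Rhizoma medium against vehicle, and 11 for Zizyphi Fructus high against low. The shares of all genes called under these settings are not given here. A changed count in this section can therefore not be read as particular to the members. The causes of these differences were not tested.

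With 1 library left out, the counts were 10 to 15 for wortmannin, 39 to 40 for Coptidis Rhizoma high, 0 to 2 for Coptidis Rhizoma medium, 0 to 1 for Coptidis Rhizoma low, 9 to 12 for Scutellariae Radix high, 3 to 6 for Scutellariae Radix medium, 1 to 4 for fresh ginger high and 0 to 1 for ginger high, all against vehicle. High against low they were 36 to 36 for Coptidis Rhizoma, 7 to 9 for Scutellariae Radix, 1 to 3 for fresh ginger and 0 to 21 for Zizyphi Fructus. They were 37 to 38 for Coptidis Rhizoma high against medium, 2 to 4 and 1 to 4 for Scutellariae Radix high against medium and medium against low, and 34 to 37 for the difference of both extracts. Counts moved by over 1.5 times without vehicle replicate 1 (fresh ginger high 1, Scutellariae Radix medium 3, Coptidis Rhizoma medium 0, low 0), vehicle replicate 2 (fresh ginger high 1, Coptidis Rhizoma medium 0) and vehicle replicate 3 (ginger high 1, Coptidis Rhizoma medium 1). They also did so without fresh ginger high replicate 2 or 3 (1 in both comparisons), fresh ginger low replicate 1 or 3 (1), ginger high replicate 1 (1), Coptidis Rhizoma medium replicate 1 or 3 (0) and Coptidis Rhizoma low replicate 1 or 3 (0). For Scutellariae Radix, medium replicate 1 (3 against vehicle, 1 against low) and low replicates 1, 2 and 3 (2, 2 and 1 in medium against low) did so, and for Zizyphi Fructus high replicates 1 and 2 (21 and 13).

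For 48 results on named genes, 432 alternative values were tallied, 9 for each: 7 other settings, and the lowest and the highest change with 1 library left out, each counted as lost if any such fit lost the call. Of these values 379 stayed on the same side of the threshold with the same direction, 53 lost the call and 0 reversed. The lowest count of any member in a library was 105. With 3 libraries a group, small changes such as those of MCM7 and RPA1 with wortmannin lie near the threshold.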
